A study of Mus musculus with 4 samples.

Results

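Collagen-high mesenchymal cells are the cells of bile duct-ligated livers that carried many transcripts of the fibrillar collagen genes Col1a1, Col1a2 and Col3a1 and few transcripts of epithelial genes. A cell was a member if it came from a library labelled bile duct ligation (BDL), had at least 500 unique molecular identifiers (UMIs, each standing for 1 captured transcript), at least 10 UMIs summed over those 3 collagens and at most 3 UMIs summed over Epcam, Krt19, Pkhd1 and Cldn7. These limits were met by 187 of the 6154 cells of the BDL libraries, 67 in BDL replicate 1 and 120 in BDL replicate 2, out of 12211 cells in the series. The same limits applied to the sham libraries gave 141 cells, 68 and 73.

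The series profiled single cells from the livers of 4 mice of genotype Sox9EGFP, 1 library per mouse, labelled as biliary epithelial cells, so the collagen-high cells lie outside the labelled cell type. The compared mice were 2 at 7 days after sham surgery and 2 at 7 days after BDL, an operation that blocks bile flow out of the liver. All carried the Sox9EGFP genotype, sham mice included. Library totals ran from 10024577 to 33809650 UMIs, and the median cell held 3260 and 2610 UMIs after sham surgery against 7058 and 7793 after BDL. No cell barcode was shared between libraries.

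The deposited cell tables contradict the sample labels in 2 libraries: the table of sham replicate 2 names its group BDL, and that of BDL replicate 2 names it sham. Groups here follow the labels. In biliary cells, Ccl2 stood at 21.9 and 12.8 CPM (UMIs scaled to a total of 1000000 per library sum) in the libraries labelled sham and at 524 and 442 CPM in those labelled BDL. Rgs5 had a UMI in 36.4% and 24.6% of biliary cells against 87.0% and 86.5%, at median depths of 4093 and 3672 against 7304 and 8108 UMIs. By both measures sham replicate 2 lay beside sham replicate 1 and BDL replicate 2 beside BDL replicate 1, as labelled.

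Collagen-producing cells of the liver come mainly from hepatic stellate cells, which store vitamin A beside the sinusoids, and from portal fibroblasts, which surround the bile ducts. When bile flow is blocked, both can become myofibroblasts that lay down fibrillar collagens, the basement membrane collagen IV and other matrix proteins around the ducts. Lrat, Reln and Colec10 are genes typical of stellate cells, and Dcn, which encodes the collagen-binding proteoglycan decorin, is used by both kinds.

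The members carried genes of liver mesenchyme that the limits had not used. At least 1 UMI of Dcn was seen in 67 of 67 members of BDL replicate 1 and in 119 of 120 of BDL replicate 2, against 1.23% and 2.35% of biliary cells (cells with at least 10 UMIs over the 4 epithelial genes) of the same mice. Pdgfra, a receptor for platelet-derived growth factor on mesenchymal cells, had a UMI in 77.6% of members (exact Clopper-Pearson 95% interval 65.8 to 86.9) and 75.8% (67.2 to 83.2), and in 0.321% and 0.464% of biliary cells. Pdgfrb, the related receptor, was found in 76.1% (64.1 to 85.7) and 75.8% (67.2 to 83.2) of members and in 0.428% and 0.655% of biliary cells. Median depth was 6494 and 7198.5 UMIs in members against 7304 and 8108 in biliary cells, so the biliary shares come from somewhat deeper cells. These intervals cover counting error only.

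Markers of other cell types were also summed over the members. Biliary markers summed to 490.5 and 836 CPM, against 10950 and 11960 CPM in biliary cells of the same mice. The 13 macrophage markers summed to 20.1 and 7.33 CPM, and 7 of them were at 0 in the collagen-high cells of all 4 libraries. The 14 markers of other immune cells summed to 22.1 and 14.7 CPM, with 9 at 0 in all 4 libraries. The 12 hepatocyte markers summed to 80.4 and 85.9 CPM, against 136 and 135 CPM in collagen-high sham cells. The 10 mesothelial markers, 3 of them at 0 in all 4 libraries, summed to 167 and 226 CPM against 334 and 432 CPM. The hepatocyte sum was lower in both BDL libraries. So was the mesothelial sum, of which Wt1 alone gave 171 and 266 CPM in sham cells and 20.1 and 38.8 CPM in members. The 10 smooth muscle markers summed to 1049 and 1287 CPM against 1118 and 1305 CPM. The 13 endothelial markers summed to 1025 and 1130 CPM against 765 and 781 CPM in collagen-high sham cells, higher in both BDL libraries, with 1 of them at 0 in all 4 libraries. Flt1 and Eng, endothelial receptors that mesenchymal cells can also use, gave 72.3% and 80.6% of the UMIs that members held of the other-class markers tested. Of 4 endothelial genes tested between the groups with edgeR, 1 was called, where 1.99% of all genes tested were called. This gene, Ptprb, a receptor phosphatase of endothelium, stood at 2.8 and 18.1 CPM in sham cells and 99 and 65 CPM in members (log2 fold change 2.95, adjusted p = 0.0372). The part of endothelial transcripts in the results below was not tested beyond the alternative that limits them.

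Collagen UMIs per member, the measure that chose them, ran from 10 to 641 with a median of 97 in BDL replicate 1 and from 11 to 859 with a median of 154 in BDL replicate 2. In collagen-high sham cells the medians were 20.5 and 19, although single sham cells reached 1314 and 996. As a share of all UMIs, these collagens were 1.67% and 2.32% in members and 1.88% and 1.55% in collagen-high sham cells, which overlap. Few BDL cells lay near the limit: 5 and 2 members had 10 to 14 collagen UMIs, and 1 cell in each BDL library had 5 to 9. After sham surgery 19 and 26 cells had 10 to 14 and 44 and 73 had 5 to 9. A further 5 and 12 BDL cells reached 10 collagen UMIs but had 4 or more epithelial UMIs and were left out.

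Among cells that were collagen-high or mesenchymal (at least 4 UMIs over Reln, Lrat, Dcn, Colec10 and C7, with the same epithelial limit), the collagen-high share after BDL was 95.7% (67 of 70 cells) and 89.6% (120 of 134). After sham surgery it was 38.0% (68 of 179) and 19.7% (73 of 371). The sham and BDL shares did not overlap, and the mean difference was 63.8 percentage points. As a share of all cells, however, collagen-high cells were 3.21% (95% interval 2.49 to 4.06) and 2.95% (2.45 to 3.52) after BDL and 2.38% (1.85 to 3) and 2.29% (1.8 to 2.87) after sham surgery. Both kinds of share are descriptions, since the members were chosen on this measure. They also depend on which other cells were captured. Biliary cells were 1789 of 2863 and 1480 of 3194 cells after sham surgery and 1871 of 2089 and 3665 of 4065 after BDL. Mesenchymal cells that were not collagen-high numbered 111 and 298 after sham surgery against 3 and 14 after BDL. The members were also deeper than the 68 and 73 collagen-high sham cells, whose median depth was 4839.5 and 3936 UMIs. With the collagen limit at 5 UMIs, the difference in share was 43.0 points.

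**Figure D1:**
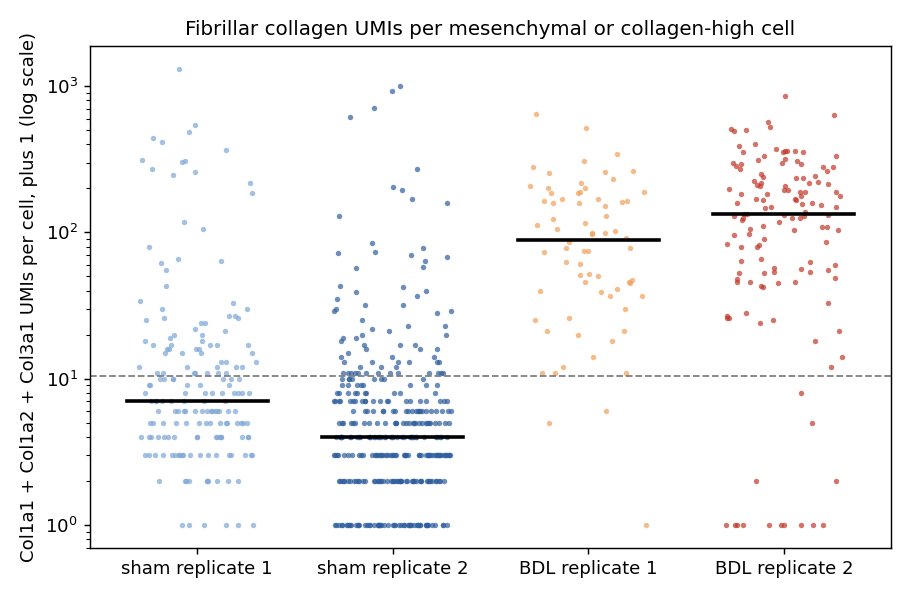
Collagen UMIs (Col1a1, Col1a2 and Col3a1 summed, plus 1, log scale) of each cell that met the collagen-high or the mesenchymal limits, by library; each point is 1 cell, the black bar is the median and the dashed line separates cells with fewer than 10 UMIs from those with 10 or more. Most cells of both BDL libraries lie above the line (67 of 70 and 120 of 134), and most sham cells lie below it.

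To ask how collagen-high cells of ligated livers differed from cells that met identical collagen and epithelial limits in sham livers, UMIs were summed per library and tested with edgeR. Of 6146 genes tested, 122 (1.99%) had an adjusted p under 0.05: 36 higher in BDL (0.586%) and 86 lower (1.4%). The median log2 fold change over all tested genes was 0.01, and 940 genes had an unadjusted p under 0.05. The calls needed both sham libraries: without sham replicate 1 or without sham replicate 2, edgeR called 0 genes, with 695 and 728 at an unadjusted p under 0.05, and DESeq2 was not run on those subsets. Without BDL replicate 1 it called 238, and without BDL replicate 2 it called 64; in each case the lone library is assumed to vary like the other group. When cells with more than 3 UMIs of hepatocyte, endothelial or immune markers were left out, edgeR called 0 of 3135 genes, with 309 at an unadjusted p under 0.05. That limit left 32 and 39 sham cells and 21 and 29 members, and the 87 called genes that could still be tested had the same sign. With Flt1 and Eng not counted it called 62.

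The 8 largest rises included secreted proteins, receptors and signalling genes. Serpina3n, a secreted serine protease inhibitor of the acute phase response, stood at 30.8 and 18.1 CPM (scaled by TMM) in collagen-high sham cells and at 172 and 472 CPM in members, a log2 fold change of 3.72 (SE 0.54, adjusted p = 0.00972). Serpina3n has near-identical relatives, and how reads were divided among them is not given in the sources used here. Olr1, a scavenger receptor for oxidized lipoprotein, rose from 47.5 and 36.2 to 355 and 313 CPM (log2 fold change 2.98, SE 0.29, adjusted p = 0.0027). For both genes the BDL libraries lay above both sham libraries, which the rule for naming genes required. The members' levels in the 2 mice were closer together for Olr1 than for Serpina3n.

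Cxcl14, a chemokine made by fibroblasts, rose from 14 and 15.1 to 112 and 101 CPM (log2 fold change 2.85). Hmox1, which breaks down heme, rose from 67.1 and 24.1 to 232 and 262 CPM (2.42). Nkd2, an inhibitor of Wnt signalling, rose from 8.39 and 15.1 to 105 and 92.7 CPM (3.06). Rapgef4, a cAMP-activated exchange factor, rose from 11.2 and 3.02 to 99 and 96.9 CPM (3.71). Lmcd1, a LIM domain protein, rose from 11.2 and 27.2 to 86 and 199 CPM (2.94), and Scn4a, a voltage-gated sodium channel, from 19.6 and 9.05 to 103 and 84.1 CPM (2.66). Nkd2, Cxcl14, Rapgef4, Lmcd1 and Scn4a had 1 to 9 UMIs per sham library. Kif26b, a kinesin family member, rose from 75.5 and 93.6 to 299 and 586 CPM (2.40). None of these genes reached 50 CPM in the biliary cells of the BDL libraries.

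The largest falls included small proteoglycans and other secreted matrix proteins. Aspn, a small proteoglycan that binds collagen, fell from 199 and 127 CPM to 8.61 and 11.7 CPM (log2 fold change -3.92, SE 0.40, adjusted p = 0.00318). Its relative Ogn fell from 710 and 410 to 49.5 and 99.1 CPM (-2.86). Smoc1, a secreted calcium-binding matrix protein, fell from 196 and 166 to 19.4 and 13.9 CPM (-3.49). No BDL library overlapped a sham library for any of these 3, which the rule for naming genes required.

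C7, a late component of complement, fell from 568 and 447 CPM to 68.8 and 79.9 CPM (log2 fold change -2.75, SE 0.26, adjusted p = 0.0027). Negr1, a neuronal adhesion protein, had 65 and 15 UMIs in sham cells and 0 and 1 in members, too few for its fitted fold change to be read as a size. Ldb2, a cofactor of LIM domain transcription factors, fell from 129 and 281 to 30.1 and 19.2 CPM (-3.10). Cdh13, a cadherin without a cytoplasmic part, fell from 243 and 169 to 34.4 and 26.6 CPM (-2.78). Wt1, a transcription factor used by mesothelium and by mesenchymal cells, fell from 179 and 308 to 21.5 and 39.4 CPM (-2.91).

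**Figure D2:**
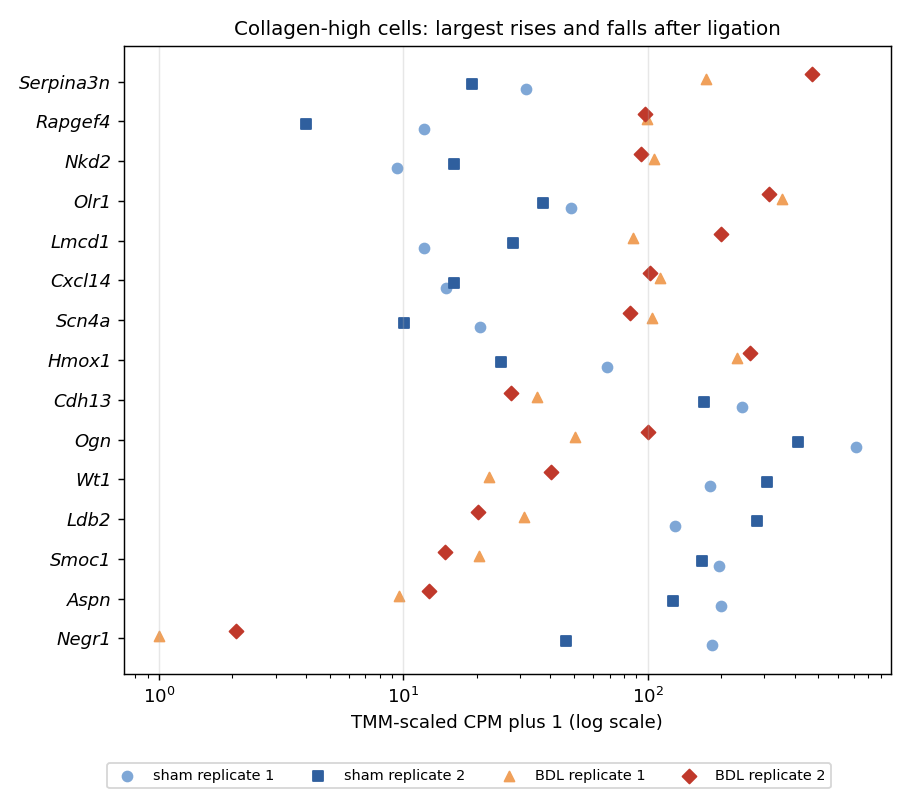
TMM-scaled CPM plus 1 (log scale) in the collagen-high cells of each library for the 8 largest rises and 7 of the 8 largest falls after ligation; each symbol is 1 library and genes are in rows. The rule that chose these genes required no overlap between the BDL and the sham libraries, as for Olr1 at 355 and 313 CPM against 47.5 and 36.2 CPM.

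The start regions of Olr1 and Cxcl14 are shown because these genes rose to similar levels in both mice and each holds a match to a motif searched. They are the 250 bases before the start of the gene from RefSeq on GRCm38.p6, an older build than that of the data, written 5′ to 3′ on the gene's strand with the motif match in capitals. The Olr1 region is chr6:129507166-129507415, minus strand, and holds TGAGTCA 60 bases before the start. The Cxcl14 region is chr13:56296552-56296801, minus strand, and holds TTCTGAGAA 191 bases before the start.
Olr1: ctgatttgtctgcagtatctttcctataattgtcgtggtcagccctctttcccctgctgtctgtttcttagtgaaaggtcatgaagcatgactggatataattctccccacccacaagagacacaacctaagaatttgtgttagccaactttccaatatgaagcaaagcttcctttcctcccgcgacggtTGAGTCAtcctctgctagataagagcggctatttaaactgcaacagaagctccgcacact
Cxcl14: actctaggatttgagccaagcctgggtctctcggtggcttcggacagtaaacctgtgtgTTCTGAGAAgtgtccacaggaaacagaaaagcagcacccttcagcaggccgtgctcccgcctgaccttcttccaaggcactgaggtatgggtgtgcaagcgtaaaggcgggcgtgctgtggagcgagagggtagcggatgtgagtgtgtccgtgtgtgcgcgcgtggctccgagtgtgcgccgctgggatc
The motifs were TGANTCA, the form bound by AP-1 factors, and TTCNNNGAA, the form bound by STAT factors, on both strands; they do not overlap each other in these regions. Of the 36 genes that rose, 26 had a start region in the table, and TGANTCA was in 1 of them (3.85%) against 5.93% of the 4804 tested genes with a region and 6.75% of all 32851 start regions. TTCNNNGAA was in 3 of 26 (11.5%), in 7 of 57 genes that fell (12.3%), in 7.12% of tested genes and in 7.02% of all regions. Shares of genes count any region of the gene. A match is a run of letters and not a measured site.

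Of 24 collagen chains outside the rule that were tested, 4 rose (Col4a1, Col4a2, Col6a3 and Col15a1) and none fell, against 0.586% and 1.4% of all genes tested, and the median log2 fold change of the list was -0.04. Col4a1 rose from 559 and 622 CPM to 2039 and 1732 CPM (log2 fold change 1.67, SE 0.24, adjusted p = 0.00972). Its partner chain Col4a2, transcribed in the opposite direction from a neighbouring start, rose from 322 and 483 to 1289 and 1343 CPM (1.71).

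Col6a3, a chain of the pericellular collagen VI, rose from 599 and 911 to 1919 and 2244 CPM (log2 fold change 1.46). Col15a1, a basement membrane collagen, rose from 67.1 and 199 to 432 and 632 CPM (2.01). The basement membrane chain Col4a4 did not pass the test, at 81.1 and 81.5 against 125 and 39.4 CPM, nor did Col6a1 and Col6a2. In the 4 chains that rose the BDL libraries were above both sham libraries, but all 122 called genes were separated between the groups in this way. Col5a2, which assembles with the fibrillar collagens, overlapped between groups at 850 and 984 against 944 and 1133 CPM. As a description only, since they chose the cells, Col1a1 stood at 5739 and 5347 CPM in sham cells and 4455 and 7254 CPM in members, and Col3a1 at 6569 and 6702 against 8226 and 9684 CPM.

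Among enzymes and chaperones that modify and cross-link collagen, 0 of 26 tested genes were called by edgeR, 4 had an unadjusted p under 0.05, and the median log2 fold change was 0.14. With 1.99% of all genes called, a count of 0 is near the background and says nothing about this list. Lox, which cross-links collagen, overlapped at 682 and 495 CPM in sham cells and 387 and 669 CPM in members. Serpinh1, a collagen chaperone, overlapped at 529 and 646 against 637 and 841 CPM.

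Of 32 matrix glycoproteins and proteoglycans tested, 1 rose and 2 fell, against 0.586% and 1.4% of all genes tested. The falls were Aspn and Ogn. Fbn2, a fibrillin of elastic microfibrils, rose from 288 and 202 to 777 and 852 CPM (log2 fold change 1.73, adjusted p = 0.0106). Tnc, the matrix protein tenascin C, stood at 78.3 and 359 CPM in sham cells and at 381 and 1093 CPM in members. The nearest sham and BDL values of Tnc were close together and the difference did not pass the test (adjusted p = 0.188). Ccdc80, a secreted matrix-binding protein outside the list, rose from 730 and 785 to 2263 and 2274 CPM (1.58, adjusted p = 0.0106).

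Of 20 matrix turnover genes tested, 2 rose and 2 fell, against 0.586% and 1.4% of all genes, and 16 did not pass. Timp1, an inhibitor of metalloproteinases, rose from 36.4 and 42.3 to 125 and 231 CPM (log2 fold change 2.20, SE 0.38, adjusted p = 0.0181), and Serpine2, an inhibitor of thrombin and plasminogen activators, rose from 179 and 226 to 521 and 575 CPM (1.44). The aggrecan-cleaving proteases Adamts4 (677 and 625 to 310 and 261 CPM) and Adamts5 (408 and 395 to 157 and 181 CPM) fell by 1.19 and 1.24 on the log2 scale. Mmp14, a membrane-bound metalloproteinase, stood at 406 and 450 against 663 and 820 CPM and did not pass the test.

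Of 19 contractile or cytoskeletal genes, edgeR called 0, and 5 had an unadjusted p under 0.05. With 1.99% of all genes called, a count of 0 in a list of this size is near the background and says nothing about the list. Acta2, the smooth muscle actin by which myofibroblasts are usually recognized, stood at 22.4 and 196 CPM in sham cells and 148 and 220 CPM in members (log2 fold change 0.79, SE 0.62), and the groups overlapped. At least 1 Acta2 UMI was found in 28.4% (18 to 40.7) and 49.2% (39.9 to 58.4) of members. The share was 5.88% (1.63 to 14.4) and 21.9% (13.1 to 33.1) of collagen-high sham cells and at most 0.218% of biliary cells in any library. The intervals of sham replicate 2 and BDL replicate 1 overlap. Members were also deeper, at a median of 6494 and 7198.5 against 4839.5 and 3936 UMIs, and the part of depth was not tested. Acta2 and Actg2 have near-identical coding sequences, so the reads of one may be counted for the other. Tagln, another actin-associated protein, stood at 266 and 281 against 219 and 238 CPM.

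The TGF-beta, PDGF and Wnt lists each had 1 gene that passed, where 1.99% of all genes tested did. Of 25 TGF-beta pathway genes 1 rose, Tgfbr2, the receptor that binds the ligand, from 143 and 163 to 366 and 450 CPM (log2 fold change 1.42, adjusted p = 0.0189). Of 4 PDGF pathway genes tested 1 fell, the ligand Pdgfd, from 112 and 214 to 34.4 and 26.6 CPM (-2.44). Biliary cells of the same mice held Pdgfd at 570 and 501 CPM. Of 11 Wnt and R-spondin genes 1 rose, the receptor Fzd1, from 50.3 and 42.3 to 148 and 164 CPM (1.75).

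Of 20 cytokine and acute phase genes, 2 rose (Serpina3n and Vcam1) and 2 fell (Cxcl12 and Ccl2), against 0.586% and 1.4% of all genes. Cxcl12, a chemokine of resting stroma, fell from 1502 and 1295 to 482 and 563 CPM (log2 fold change -1.42, SE 0.24, adjusted p = 0.0168). Ccl2, which attracts monocytes, fell from 352 and 329 to 105 and 142 CPM (-1.44), while biliary cells of the BDL libraries held 524 and 442 CPM. Vcam1, an adhesion molecule for leukocytes, rose from 255 and 341 to 777 and 735 CPM (1.34, adjusted p = 0.0224), and biliary cells of those mice held 2265 and 2175 CPM. The part of biliary transcripts in the Vcam1 value was not tested. Il6st, the shared receptor chain of the interleukin-6 family, stood at 269 and 263 against 495 and 566 CPM and did not pass the threshold (adjusted p = 0.0579).

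Of 17 resting stellate genes tested, edgeR called 0, also near the 1.99% of all genes, 4 had an unadjusted p under 0.05, and the median log2 fold change was -0.01. Hgf, hepatocyte growth factor, stood at 456 and 450 CPM in sham cells and at 979 and 362 CPM in members, so the members of the 2 mice lay on either side of the sham cells. Of 15 portal fibroblast genes tested, 2 rose (Cxcl14 and Col15a1) and 2 fell, against 0.586% and 1.4% of all genes tested. Col15a1 was also counted among the collagen chains above. Gsn, an actin-severing protein, fell from 1214 and 691 to 209 and 244 CPM, and Slit2, a guidance ligand, from 310 and 278 to 12.9 and 63.9 CPM.

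The members were not uniform. They were split, after the data had been seen, into stellate-side cells (at least 2 UMIs over Reln, Lrat and Colec10) and fibroblast-side cells (0 such UMIs), which makes the genes below a description without a test. BDL replicate 1 held 36 stellate-side (53.7%), 28 fibroblast-side (41.8%) and 3 cells between. BDL replicate 2 held 39 (32.5%), 68 (56.7%) and 13. In the sham libraries the collagen-high cells were 25 and 33, and 34 and 28. Cells of both sides were found in every library. The stellate-side counts include any background Reln, which had a UMI in 18.3% and 19.6% of biliary cells in the sham mice and 3.21% and 4.47% in the BDL mice. The fibroblast side is defined by absence, so stellate cells whose UMIs were missed would count there. Lrat had a UMI in 52.2% and 39.2% of members and Colec10 in 20.9% and 12.5%. Neither part in the split was tested. Dcn stood at 4997 CPM stellate-side against 1338 CPM fibroblast-side in BDL replicate 1 and at 4612 against 1883 CPM in BDL replicate 2.

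Collagens made up 1.16% and 1.99% of all UMIs in the stellate-side cells of the BDL mice and 0.479% and 0.660% in those of the sham mice, with no overlap. In fibroblast-side cells the values were 2.25% and 2.50% in BDL mice and 3.06% and 2% in sham mice, which overlap. The median number of collagen UMIs per stellate-side cell was 47.5 and 121 against 17 and 17 in sham mice. These are again the genes of the rule and carry no test.

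Of 3988 genes at the level required, 206 (5.17%) were at least 2-fold higher in stellate-side cells in both BDL mice and 138 (3.46%) were at least 2-fold higher in fibroblast-side cells in both. Among 16 genes of the resting stellate list, 9 were on the stellate side. Hgf stood at 1729 against 172 CPM in BDL replicate 1 and at 820 against 158 CPM in BDL replicate 2 (CPM here leave the genes of the limits out of the total). Gdf2, which encodes bone morphogenetic protein 9, stood at 316 against 4.5 CPM and at 274 CPM against 0. Ecm1, Colec11, Bmp5, Ngfr, Vipr1 and Hand2 lay on this side too. Rspo3, an amplifier of Wnt signalling, lay on the same side at 408 against 27.2 CPM and 189 against 39.1 CPM.

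Higher on the fibroblast side were 6 of 13 portal fibroblast genes, 5 of 19 other collagen chains and 7 of 28 matrix glycoproteins, with none of these lists' genes 2-fold higher on the stellate side. Mgp, an inhibitor of calcification, stood at 1611 against 67.3 CPM in BDL replicate 1 and 1152 against 247 CPM in BDL replicate 2. Eln, elastin, stood at 1239 against 185 CPM and 1020 against 295 CPM. Sfrp1, a secreted Wnt antagonist, stood at 885 against 33.7 CPM and 1434 against 285 CPM. Mfap4, Fbln1, Fbln2, Cd34 and Col15a1 of the portal list and Col4a4, Col4a5, Col5a3 and Col6a6 of the collagen list lay with them. Col15a1 is in both the portal and the collagen list and was counted in each, so the list counts are not independent. Flt1 was higher on the fibroblast side (753 against 215 CPM, 949 against 333 CPM), and Pecam1 and Plvap, genes also used by endothelium, were higher on the stellate side (Plvap 442 against 49.9 CPM, 449 against 27.3 CPM).

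**Figure D3:**
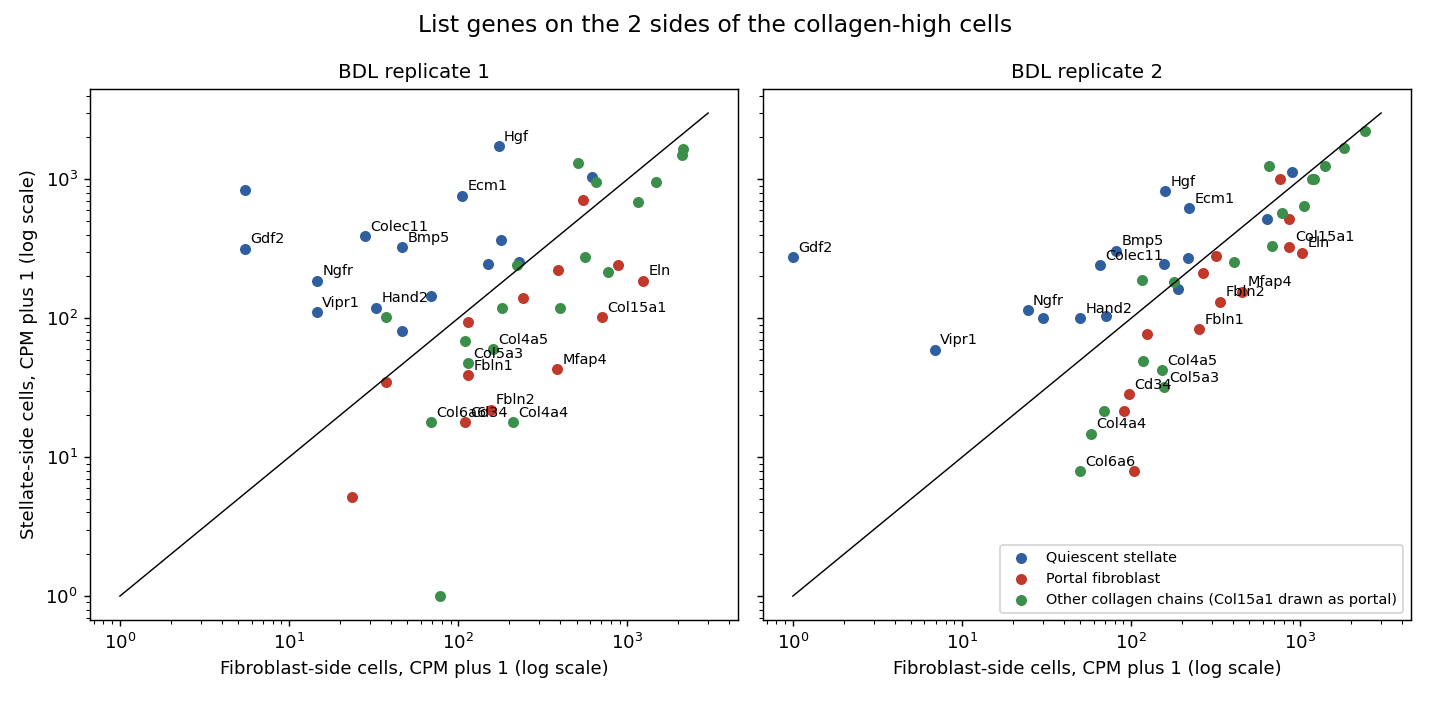
CPM plus 1 (log scales) of list genes in fibroblast-side (horizontal) and stellate-side (vertical) collagen-high cells of each BDL mouse; each point is 1 gene, the line marks equal levels, and labels name genes at least 2-fold apart in the same direction in both mice, with 1 of the 9 resting stellate genes left out of the plot. The 8 labelled resting stellate genes lie above the line and the labelled portal and collagen genes below it in both panels.

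Several of the differences from sham cells were called on each side when each was compared with its own kind in edgeR (fibroblast-side cells here also had at least 2 UMIs over Dcn and C7). Serpina3n, Olr1, Kif26b, Fbn2, Ccdc80, Col6a3 and Hmox1 rose, and Gsn and Ldb2 fell, in stellate-side cells and in fibroblast-side cells. Fbn2 rose by 3.84 on the log2 scale in stellate-side cells (adjusted p = 0.00515) and by 1.34 in fibroblast-side cells (adjusted p = 0.0446). Col4a1 changed by 0.98 in stellate-side cells (adjusted p = 0.103) and by 2.28 in fibroblast-side cells (adjusted p = 0.012). Vcam1 changed by 0.66 (adjusted p = 0.319) and by 2.29 (adjusted p = 0.0138). Whether the changes differ between the sides was not tested.

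To see collagen itself without selecting on it, mesenchymal cells were taken by Reln, Lrat, Dcn, Colec10 and C7 alone, which gave 179 and 364 cells in sham and 65 and 129 in BDL mice. Of the BDL cells so chosen, 62 and 115 were also members. Their collagen UMIs per cell had medians of 6 and 3 in sham mice and 85 and 131 in BDL mice, where these cells were also deeper (median 6494 and 6803 against 3223 and 2178 UMIs). As a share of all their UMIs, the 3 collagens were 1.09% and 0.652% in sham mice and 1.605% and 2.14% in BDL mice. EdgeR called 689 of 8363 genes (8.24%), 255 higher (3.05%) and 434 lower (5.19%), so that 37% of the calls were higher. With every cell thinned to 1000 UMIs the calls were 105 higher and 102 lower. Leaving out 1 library gave 254 calls without sham replicate 1, 199 without sham replicate 2, 1331 without BDL replicate 1 and 346 without BDL replicate 2. With the limit on other-class markers it called 0 of 4185 genes, with 586 at an unadjusted p under 0.05, from 100 and 248 sham cells and 21 and 27 BDL cells.

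Col3a1 rose from 3793 and 2832 to 7772 and 8706 CPM (log2 fold change 1.31, adjusted p = 0.0236). Col1a1, at 3171 and 2041 against 4033 and 6456 CPM, did not pass (1.01, adjusted p = 0.0929), nor did Col1a2, at 4087 and 2429 against 4828 and 5888 CPM (0.72, adjusted p = 0.205). For all 3 genes both BDL libraries were above both sham libraries, which is a description and not a test. How many of all tested genes separate in this way is not given here. Of 28 other chains tested, 9 rose and 1 fell, against 3.05% and 5.19% of all genes tested, with a median log2 fold change of 0.68. The collagen IV chains Col4a1, Col4a2 and Col4a5, the collagen VI chains Col6a1, Col6a2 and Col6a3, and Col5a2, Col15a1 and Col18a1 rose, and Col24a1 fell. Col15a1 rose most, from 35.5 and 70.8 to 374 and 540 CPM (3.08).

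**Figure D4:**
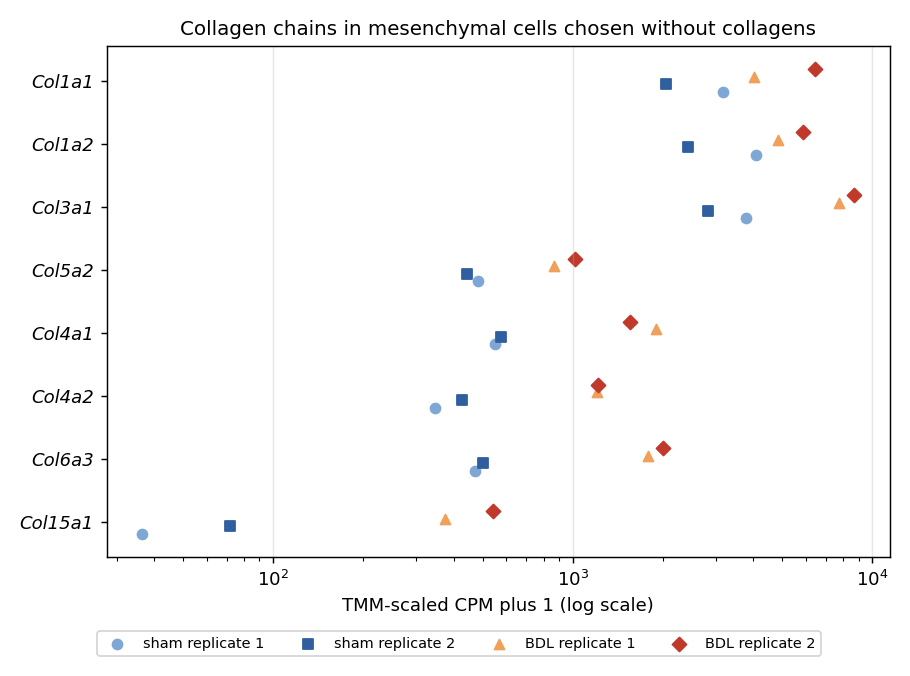
TMM-scaled CPM plus 1 (log scale) of collagen chains in mesenchymal cells chosen without any collagen gene; each symbol is 1 library. Both BDL libraries lie above both sham libraries in every row shown, from Col3a1 (7772 and 8706 against 3793 and 2832 CPM) to Col15a1 (374 and 540 against 35.5 and 70.8 CPM). The rows are a chosen set of chains, and how many of all tested genes separate in this way is not given here. Other chains differed: Col24a1 fell, and Col4a4 overlapped between groups (60.7 and 54.5 CPM in sham mice, 118.7 and 36.5 CPM in BDL mice).

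In the same mesenchymal cells 5 of 20 contractile genes rose and none fell. Of all genes tested there, 3.05% rose and 5.19% fell, which is the background for each list below as well. Acta2 rose from 11.8 and 54.5 to 145 and 196 CPM (log2 fold change 2.30, adjusted p = 0.0107), and Vim, Palld, Tpm4 and Actg2 rose with it. Of 32 matrix glycoproteins 7 rose and 2 fell, with Tnc rising from 59.2 and 156 to 337 and 985 CPM (2.61, adjusted p = 0.00957). Of 19 resting stellate genes none rose and 9 fell. Hhip, an inhibitor of Hedgehog signalling, fell from 201 and 352 to 30.2 and 9.86 CPM (-3.99). Ecm1, which restrains activation of latent TGF-beta, fell from 1566 and 2391 to 453 and 319 CPM (-2.37).

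These mesenchymal sums mix a change of cell makeup with a change within cells, which cannot be told apart here. The collagen-high sums hold such a mix too: stellate-side cells were 36.8% and 46.6% of them in sham mice and 53.7% and 32.5% in BDL mice. Of the 122 genes called there, 30 of 81 tested in stellate-side cells alone were called again with the same sign. In fibroblast-side cells alone it was 74 of 105, and both of these fits used fewer cells. The share of mesenchymal cells that are collagen-high differed between the groups, as given above. In the BDL mice, Ccl21a and Lyve1, genes of lymphatic endothelium, also rose in the mesenchymal sums. Of Ccl21a, the members held 1 and 0 UMIs and the other mesenchymal cells 23 and 141.

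Set against all sham mesenchymal cells, whose choice did not require collagen, 116 of 3946 genes (2.94%) were at least 2-fold higher in members of both mice and 185 (4.69%) at least 2-fold lower. The balance turned in cells thinned to 1000 UMIs (202 higher, 137 lower), without sham replicate 1 (288 and 247), against sham cells with stellate genes (361 and 315) and under the other-class limit (107 and 100). This is a description, because members were picked on collagen. Serpina3n was furthest apart, at 164 and 477 CPM against 16.4 and 6.9 CPM, followed by Lmcd1, Col15a1, Kif26b, Timp1, Ace, Rgs16 and Fbn2. Ace, the angiotensin-converting enzyme, stood at 107 and 151 against 20.9 and 14.8 CPM. On the lower side, Ptprt, a receptor phosphatase, stood at 10.3 and 25.8 against 346 and 405 CPM, and Fcna, a lectin of the complement system, at 43.1 and 23.7 against 355 and 433 CPM. Hs6st3, Lsamp, Nckap5, Ldb2, Egfem1 and Hhip were the other 6. Of 18 resting stellate genes at the level required 6 were lower and 0 higher, and of 19 other collagen chains 6 were higher and 0 lower.

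The BDL mice held only 3 and 14 mesenchymal cells that were not members, so the contrast within those mice is thin. Of 4646 genes, 53 (1.14%) were at least 2-fold higher in members of both mice and 556 (12.0%) at least 2-fold lower. In BDL replicate 1 the other cells held 11338 UMIs, so the floor of 3 counts there stood at 266 CPM. A gene had to be 2-fold above that floor to count as higher in members. To count as lower, it faced floors of only 6.2 and 3.2 CPM. The 2 counts were not made on equal terms, and their balance is not read as a result. Ccdc80 stood at 2161 and 2298 CPM in members against levels at the floor of 3 counts, 266 and 44.4 CPM. Sparc, a collagen-binding matrix protein, stood at 7333 and 8969 against 1329 and 1036 CPM. The genes highest in the other cells, Ccl21a (2038 and 2086 CPM), Lyve1, Mmrn1 and Prox1, are genes of lymphatic endothelium, so the mesenchymal label of these cells is uncertain. In members, Ccl21a and Mmrn1 were at or below the floor of 3 counts, which is 6.2 and 3.2 CPM.

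Transcripts of cycling cells were counted last. After each cell was thinned to 1000 UMIs, at least 1 UMI of Mki67 or Top2a was found in 10.4% (7 of 67 cells, 95% interval 4.3 to 20.3) and 4.17% (5 of 120, 1.37 to 9.46) of members. In collagen-high sham cells the same share was 2.94% (2 of 68, 0.358 to 10.2) and 1.37% (1 of 73, 0.0347 to 7.4). It was 8.71% and 7.91% of biliary cells in the BDL mice. Without thinning the shares were 32.8% and 19.2% in members and 17.6% and 12.3% in collagen-high sham cells. Both BDL shares were above both sham shares after thinning, but the intervals of the sham and BDL libraries overlap. No test was made over the mice. The 20 genes of the proliferation list summed to 208.6 and 151 CPM in collagen-high sham cells and to 502.5 and 147.7 CPM in members, which overlap. Mki67 itself stood at 30.8 and 15.1 against 159 and 32 CPM and did not pass the test (adjusted p = 0.249 in edgeR). In the mesenchymal cells chosen without collagens it rose, from 17.8 and 25 to 136 and 43.4 CPM (log2 fold change 1.95, adjusted p = 0.0407). Of its 63 and 44 UMIs there, 0 and 14 came from cells that were not members. Of the proliferation list, 0 of 3 genes tested were called in collagen-high cells, with 1 at an unadjusted p under 0.05, and 1 of 5 in mesenchymal cells. Of all genes tested, 1.99% and 8.24% were called in these 2 fits, so counts in so short a list say nothing about it.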

How the data were processed

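Per the labels' protocols, cells of 4 mouse livers were fixed, given combinatorial barcodes with the Parse Biosciences Evercode kit, and reverse transcribed from oligo(dT) and random primers. The deposited matrices hold, for every gene in each cell, the authors' raw transcript counts (UMIs), not normalized. File headers call the reference mm39refseq, and it is GRCm39 per the submitters' processing notes; no annotation of that build was used, and genes are named by the files' symbols. How reads were aligned, cells called and doublets handled is not given in the sources used here. No doublet caller was run; limits on epithelial and other-class UMIs served in its place.

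Members, gene lists and tests were chosen with earlier results of these data known. Counts were summed per library over the cells described (373871 to 954597 UMIs in collagen-high cells) and tested with edgeR 4.0.16 (R 4.3.3): TMM, filterByExpr, quasi-likelihood F test, two-sided, Benjamini-Hochberg threshold 0.05 over all genes tested, n = 2 mice per group. P-values measure the spread between these mice, which nothing else replicates. The SE is the log2 fold change divided by the square root of F. The steps were tested on simulated data. Genes of the limits got no call where the limits used them. Comparisons without a test counted genes at least 2-fold apart in both mice at 50 CPM or more, with the lower side floored at 3 counts per library. Replicate numbers follow sample order and pair nothing.

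Genes were named by rule: the 8 largest rises and falls in collagen-high cells and 5 in mesenchymal cells (adjusted p under 0.05, mean of 50 CPM or more, groups not overlapping), the 8 or 5 furthest apart in the untested comparisons, the top members of each list, and a fixed set of collagen, myofibroblast and stellate genes. Genes of the 2 sides and those named outside this rule were chosen after their values were seen. Results for some genes are not reported here. Start regions are from the RefSeq table of GRCm38.p6. Alternatives were DESeq2 1.42.0, other scalings and filters, other limits, thinning to 1000 UMIs per cell and leaving out each library.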

Additional observations from a re-analysis of the deposited data

How the results depend on the processing

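No paired analysis was possible because no label numbers the mice. With 2 mice per group, a lone library left in a group is assumed to vary like the other group, and depth limits genes under about 50 CPM. In collagen-high cells edgeR called 122 genes. It called 402 with no filter on low counts, 0 when at most 3 UMIs of other classes were allowed per cell (309 at an unadjusted p under 0.05; 3135 genes tested), 334 at a collagen limit of 5, and 37 with no epithelial UMI allowed; DESeq2 called 94. Added after seeing the data, the other-class limit with Flt1 and Eng not counted gave 62, leaving out proliferating cells 51 and stellate-side cells alone 55. Leaving out 1 library gave 0 to 238. Every one of the 122 genes tested under these settings kept its direction, except 2 of the 81 tested in stellate-side cells.

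In mesenchymal cells edgeR called 689 genes. DESeq2 called 340, no filter on low counts gave 1079, the other-class limit 0 (586 at an unadjusted p under 0.05), thinned cells 207 and no epithelial UMI 239. The added settings gave 146 for fibroblast-side cells, 459 without proliferating cells and 453 for stellate-side cells. Leaving out 1 library gave 199 to 1331. Of the 689 genes, the sign was kept by 503 of 508 tested under the other-class limit, 653 of 654 with Flt1 and Eng not counted, 401 of 402 in thinned cells, 410 of 421 in fibroblast-side cells and 603 of 604 in stellate-side cells. Among genes named by rule, directions turned for Ltbp2 (-0.13) and Flt1 (-0.10) under the other-class limit, for Prox1 (-0.98) under that limit with Flt1 and Eng not counted, and for Tgfbi (0.16) in fibroblast-side cells. The cause was not tested.

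The difference in collagen-high share was 63.8 points and 43.0 points at a collagen limit of 5. Against sham mesenchymal cells, 301 genes were 2-fold apart, 101 were 3-fold apart, 188 at a level of 100 CPM and 676 against sham cells with 4 UMIs of Reln, Lrat and Colec10; leaving out 1 library gave 402 to 673. Against other BDL mesenchymal cells the count was 609, and 71 under the other-class limit, 171 at a mesenchymal limit of 8, 277 in thinned cells, 339 at 3-fold and 389 at 100 CPM; with 1 mouse alone it was 1808 or 1900.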
